A study of Mus musculus with 3 samples.

Results

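The 8 genes Duox2, Duoxa2, Nox1, Noxa1, Noxo1, Nos2, Cybb and Cyba encode enzymes and partner proteins by which gut epithelium and phagocytes make superoxide, hydrogen peroxide and nitric oxide. They were chosen by gene symbol, not by any measured value, and all 8 are among the 32285 genes of each count matrix. Mouse colon cells were sequenced in droplets from the 3′ end of their transcripts; a barcode marks the droplet, and a unique molecular identifier (UMI) marks the single RNA molecule. The 3 libraries came from germ-free mice dosed with phosphate-buffered saline (PBS), from such mice carrying the wild type of a strain named only BT (BT WT), and from such mice carrying a mutant of it (BT mutant). That the PBS mice carried no microbes is read from the design text, which names germ-free mice without a strain as a group; all 3 groups therefore share a germ-free origin. The labels give neither the full name of BT nor the mutation, the mouse strain, age, sex, time after colonization or number of animals, so whether a library is 1 animal or a pool is unknown. With 1 library per group there is no replicate check and no test between groups: all intervals below are 95% intervals that cover the counting of UMIs only.

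DUOX2 is an oxidase of the apical surface of gut epithelium that releases hydrogen peroxide, and DUOXA2 is the maturation factor it needs to leave the endoplasmic reticulum. NOX1 is the superoxide-forming oxidase of colon epithelium and works with the organizer NOXO1, the activator NOXA1 and the membrane subunit CYBA, whereas CYBB is the oxidase of phagocytes and B cells and uses the same CYBA together with the cytosolic NCF proteins. NOS2 is the inducible synthase that makes nitric oxide from arginine, and Duox2 and Nos2 are known in the gut as genes that microbes and cytokines such as interferon gamma, IL-17 and IL-22 can switch on.

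Values given in a row of 3 are in the order PBS, BT WT, BT mutant. Sequencing yielded 42003444, 55436776 and 54943483 UMIs over 4425, 8829 and 8195 barcodes. Barcodes with at least 300 genes and at most 25% mitochondrial UMIs numbered 3198, 7070 and 6138, and library pairs shared between 6 and 13 of these barcodes. Cells were clustered without the 8 genes and named from marker genes, each class being called "-like". The 7 classes with at least 50 cells in every library were colonocyte-like, goblet-like, stem and transit-amplifying-like, B-like, T-like, macrophage and monocyte-like and fibroblast-like cells. Levels are the UMIs of a gene per 1000000 UMIs of the class (CPM), and with 3′ counts they are compared between classes and libraries, not between genes. The colonocyte-like class was not made of the same cells in the 3 libraries. Of its 508 PBS cells, 325 lay in cluster 12, led by Gsta1. Of the 3316 BT WT cells, 2542 lay in clusters 0.0 to 0.6, led by Ifit1bl1, Atp12a, Cyp2d12 or 2610528A11Rik. Of the 3200 BT mutant cells, 1080 lay in cluster 3, led by Slc17a4, 1084 in cluster 4, led by Clca4a, and 459 in cluster 8, led by Car1. Its median cell held 16158.5 UMIs in the PBS library, 3938.5 in BT WT and 3327 in BT mutant. A cluster that is nearly all of 1 library may be that library and not a cell type, and 743 PBS cells, against 227 and 377, stayed unnamed, most of them in clusters led by fat-cell genes such as Cfd and Fabp4 or by Gsta1. The label of the gene set fits the epithelium for part of the set only: Cybb was an immune gene here, and Nos2 was close to absent.

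Duox2 and Duoxa2 lie head to head on mouse chromosome 2 (GRCm38). GENCODE places Duox2 on the minus strand at 122279247 to 122298449 and Duoxa2 on the plus strand at 122298900 to 122302885, where the end of Duoxa2 overlaps Duoxa1 on the opposite strand. The 250 bases before the RefSeq start sites of both are shown because these 2 genes were higher together in the colonized libraries, and those of Nox1 and Cybb because these related oxidases were found in separate cell classes. Capitals mark matches, on either strand, to TATAAA (a box of the core promoter), TGANTCA (AP-1), TTCNNNGAA (STAT), AGATAA (the motif of GATA factors) and to the longer NF-kB and interferon response motifs, and the windows are written 5′ to 3′ on the strand of the gene.
Duox2, chr2:122298228-122298477, minus strand: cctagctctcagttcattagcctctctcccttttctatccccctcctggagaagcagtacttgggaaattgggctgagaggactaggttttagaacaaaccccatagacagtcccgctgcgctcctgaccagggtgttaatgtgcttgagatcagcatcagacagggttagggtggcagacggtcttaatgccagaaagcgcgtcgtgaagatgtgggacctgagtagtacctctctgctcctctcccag
Duoxa2, chr2:122298650-122298899, plus strand: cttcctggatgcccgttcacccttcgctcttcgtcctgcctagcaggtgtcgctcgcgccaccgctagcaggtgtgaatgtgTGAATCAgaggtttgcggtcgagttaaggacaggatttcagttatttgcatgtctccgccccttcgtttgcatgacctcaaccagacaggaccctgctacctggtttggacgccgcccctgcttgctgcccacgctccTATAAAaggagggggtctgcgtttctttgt
Nox1, chrX:134111855-134112104, minus strand: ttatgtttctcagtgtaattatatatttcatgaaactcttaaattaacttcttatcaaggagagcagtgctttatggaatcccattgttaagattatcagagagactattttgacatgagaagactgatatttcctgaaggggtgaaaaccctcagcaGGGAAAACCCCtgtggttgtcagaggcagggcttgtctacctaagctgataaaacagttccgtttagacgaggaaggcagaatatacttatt
Cybb, chrX:9469325-9469574, minus strand: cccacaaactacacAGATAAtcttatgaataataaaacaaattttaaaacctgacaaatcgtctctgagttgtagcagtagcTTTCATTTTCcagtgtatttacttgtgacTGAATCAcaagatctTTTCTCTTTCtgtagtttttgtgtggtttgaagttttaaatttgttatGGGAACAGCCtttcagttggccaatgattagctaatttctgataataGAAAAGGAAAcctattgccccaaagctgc
RefSeq windows (GRCm38.p6) were found for 7 of the 8 genes. RefSeq and GENCODE differ in start sites: 222 of the 250 bases of the Duox2 window, and all 250 of the Nox1 and Cybb windows, lie inside the gene as GENCODE draws it, and 0 of the Duoxa2 window do. The Duox2 window held none of these 6 motifs, and 172 bases separated it from the Duoxa2 window. The Duoxa2 window held a TATA box 30 bases before the start and an AP-1 match, TGAATCA. Of 32851 mouse promoter windows of that length, 12.4% held a TATA box and 6.75% an AP-1 match. The Nox1 window held 2 overlapping NF-kB matches that together read GGGAAAACCCC, a motif so loose that 45.8% of windows held it. The Cybb window held 3 interferon response matches, a motif present in 2.98% of windows, as well as 1 AP-1, 1 NF-kB and 1 GATA match. A match is a description of letters and not of binding, and no match says only that these letters are not in the window.

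Duox2 was the member that differed most between the libraries of colonized and germ-free mice in colonocyte-like cells. Its level was 6.16 CPM (4.85 to 7.70) in the PBS library from 76 UMIs, 59.8 CPM (56.4 to 63.4) in BT WT from 1113 UMIs and 45.4 CPM (42.7 to 48.2) in BT mutant from 1065 UMIs. Both colonized libraries lay far above the PBS library, and the BT mutant level lay below that of BT WT in the class as a whole. The ratio of BT WT to PBS was 9.72 (7.70 to 12.4), that of BT mutant to PBS 7.37 (5.84 to 9.43) and that of BT mutant to BT WT 0.758 (0.697 to 0.826). A Duox2 UMI was seen in 8.07%, 19.8% and 22.1% of colonocyte-like cells. After each cell was thinned to 1000 UMIs these shares were 0.825%, 6.37% and 8.50%. In B-like cells, which are not known to use DUOX2, the unthinned shares were 0.568%, 0.942% and 1.52%, at median depths of 3453, 2846 and 2735 UMIs.

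Duoxa2, the maturation factor, followed the same order at a lower count in the class as a whole. Its level in colonocyte-like cells was 1.30 CPM (0.741 to 2.10) in the PBS library, 7.20 CPM (6.03 to 8.53) in BT WT and 5.32 CPM (4.43 to 6.34) in BT mutant, from 16, 134 and 125 UMIs. The ratio was 5.56 (3.30 to 10.0) for BT WT to PBS, 4.11 (2.43 to 7.41) for BT mutant to PBS and 0.739 (0.575 to 0.950) for BT mutant to BT WT. The order of BT WT and BT mutant was not the same throughout the class. In cluster 3 the levels were 5.83 and 13.2 CPM, from 4 and 36 UMIs. In cluster 4 they were 10.6 and 13.2 CPM, and in cells under 10000 UMIs 9.52 and 12.3 CPM. In cluster 8 they were 1.80 and 1.34 CPM, and in cells of at least 10000 UMIs 2.69 and 1.03 CPM. No direction for Duoxa2 between BT mutant and BT WT is therefore given. Of the 16 PBS UMIs, 8 came from the 9 PBS cells of cluster 4. Cells with a Duox2 UMI held a Duoxa2 UMI more often than cells without one. Among BT WT colonocyte-like cells, 10.3% of those with a Duox2 UMI and 1.81% of those without one held a Duoxa2 UMI. In the BT mutant library these shares were 8.19% and 2.05%, and in the PBS library 9.76% and 0.857%. Cells with a Duox2 UMI were somewhat deeper than those without, at medians of 4337 against 3852 UMIs in BT WT. After thinning, the BT WT shares were 4.43% and 0.737%.

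**Figure D1:**
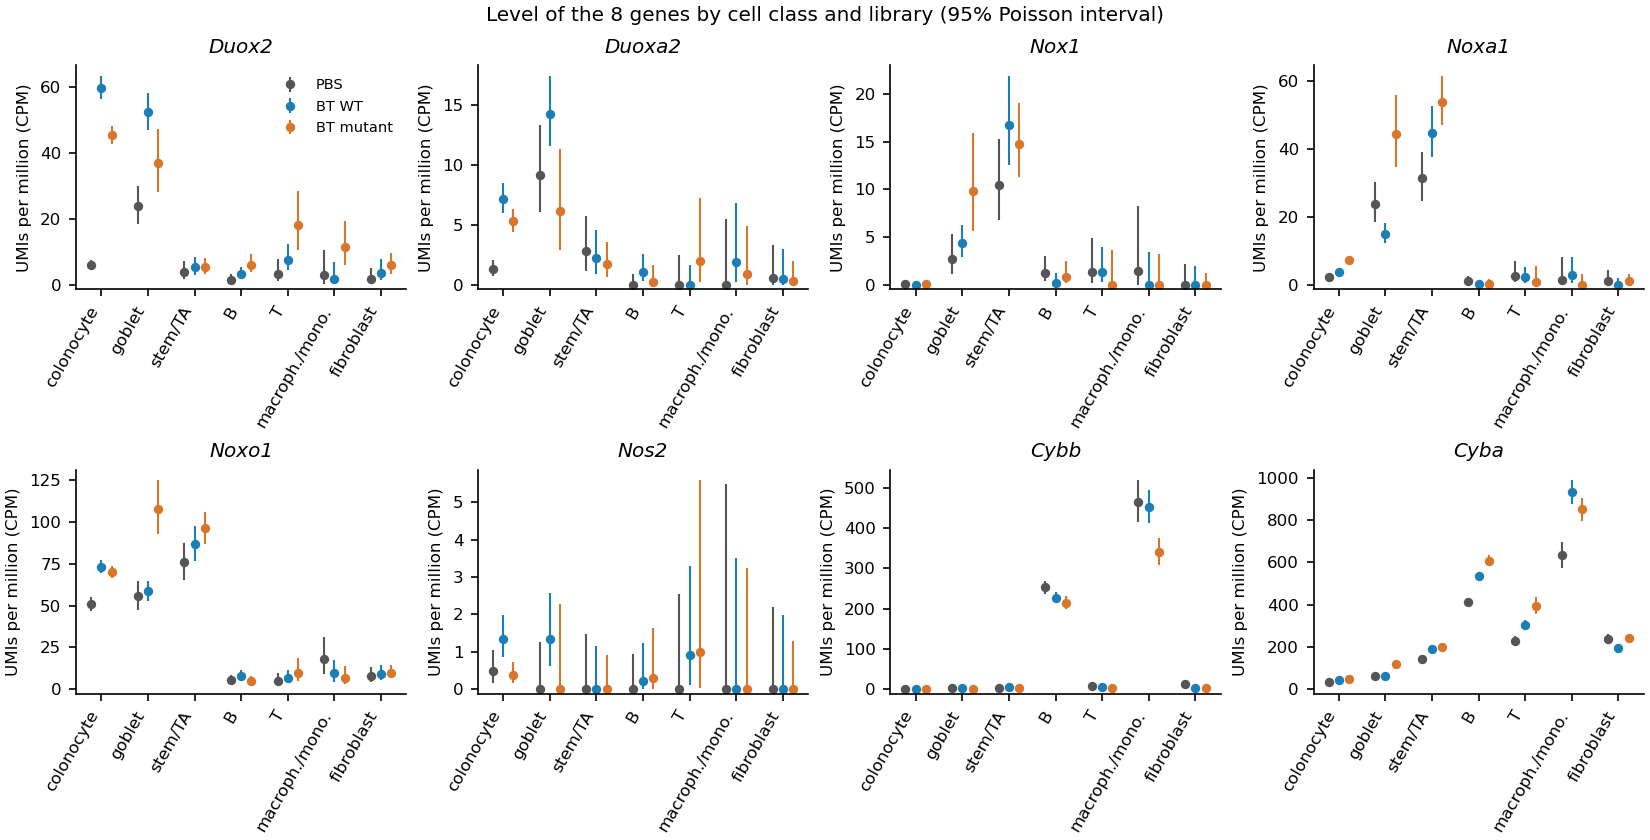
Level in CPM (vertical axis) of each of the 8 genes in the 7 compared cell classes (horizontal axis) of each library; points are class sums of 1 library and bars are 95% Poisson intervals. Duox2 in colonocyte-like cells is at 6.16, 59.8 and 45.4 CPM, Nox1 and Noxa1 peak in stem and transit-amplifying-like cells, and Cybb is confined among these classes to macrophage and monocyte-like and B-like cells at more than 20 CPM.

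The size of the Duox2 difference depended on which colonocyte-like cells were set side by side. In BT WT the level ranged from 27.8 CPM in cluster 0.5 to 149 CPM in cluster 0.3, and it was 83.0 CPM over clusters 0.0 to 0.6 together. In BT mutant it was 137 CPM in cluster 3 and 106 CPM in cluster 4. In the deep clusters of BT WT and BT mutant it was far lower than in these, and low too in PBS: 4.39 CPM in BT WT cluster 8, 6.88 CPM in BT mutant cluster 8, 2.39 CPM in BT mutant cluster 7.1, and 7.37 CPM in the PBS cluster 12, whose median cell held 20694 UMIs. In PBS the shallow cluster 10 was no higher, at 6.93 CPM from 1 UMI over 67 cells. The PBS library had only 9 cells in cluster 4, and these held 5 Duox2 UMIs or 135 CPM, which is as high as in the colonized libraries but rests on very few cells. Colonocyte-like cells were therefore also compared by depth. In cells of at least 10000 UMIs the level was 5.50 CPM (4.23 to 7.02) in the PBS library, 17.6 CPM (14.4 to 21.1) in BT WT and 7.97 CPM (6.58 to 9.55) in BT mutant, over 317, 248 and 515 cells. In cells under 10000 UMIs it was 17.1 CPM (8.84 to 29.9), 81.6 CPM (76.6 to 86.8) and 106 CPM (99.8 to 113), over 191, 3068 and 2685 cells. Duox2 was thus above the PBS library in BT WT at both depths and in BT mutant clearly so among the shallower cells, with log2 ratios of 1.68 and 2.25 for BT WT to PBS and of 0.54 and 2.64 for BT mutant to PBS, against 3.28 and 2.88 for all cells. Counted as UMIs per cell, the levels were 0.150, 0.336 and 0.333, a log2 ratio of only 1.17 for BT WT to PBS. How far depth, and how far the make-up of the class, carries the difference was not tested.

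The lower class level in BT mutant than in BT WT did not hold inside the larger clusters that both libraries share. The log2 ratio of BT mutant to BT WT was -0.40 for the whole class, but 0.76 within cluster 0.0, 0.91 within cluster 3, 0.17 within cluster 4 and 0.65 within cluster 8. On few UMIs BT mutant was lower in cluster 10, at 21.9 against 23.2 CPM from 10 and 3 UMIs, and in the colonocyte-like clusters 7.1, 7.5 and 7.8 together, at 3.37 against 6.63 CPM from 12 and 3 UMIs. It was also above 0 among cells under 10000 UMIs (0.38), with equal weight per cell (0.33), after thinning (0.25), at a Leiden resolution of 2.0 (0.24) and with no mitochondrial limit (0.16). Among cells of at least 10000 UMIs it was -1.14. No direction for Duox2 between BT mutant and BT WT is therefore given.

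**Figure D2:**
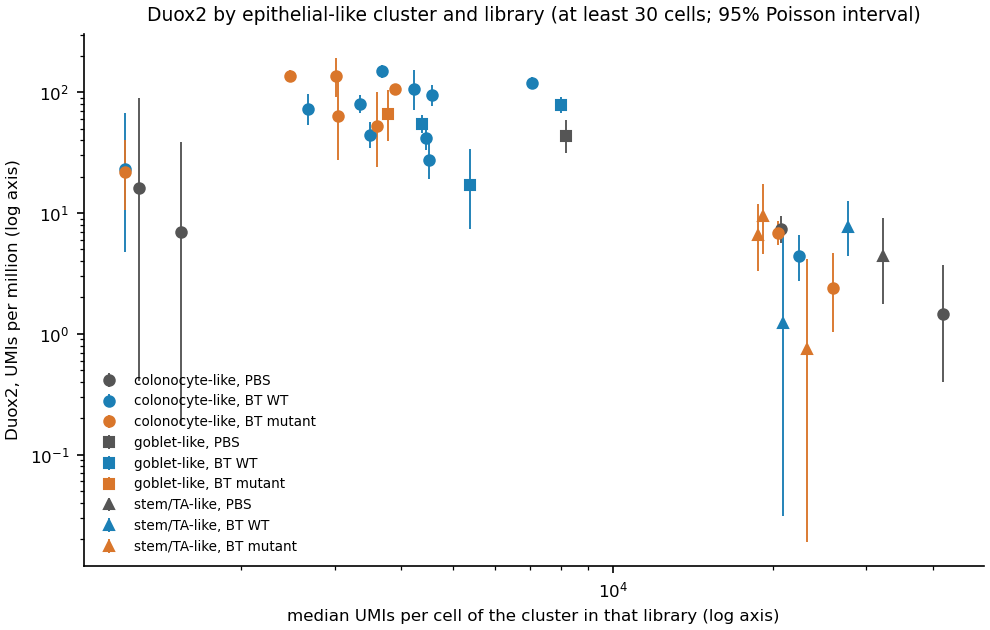
Duox2 level (CPM, vertical log axis) against the median UMIs per cell (horizontal log axis) of each epithelial-like cluster with at least 30 cells in a library; marker shape gives the class, colour the library, and bars are 95% Poisson intervals. Colonocyte-like clusters of BT WT and BT mutant with a median under 10000 UMIs lie between 21.9 and 149 CPM, and all clusters with a median above 10000 UMIs, PBS cluster 12 included, lie below 10 CPM.

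**Figure D3:**
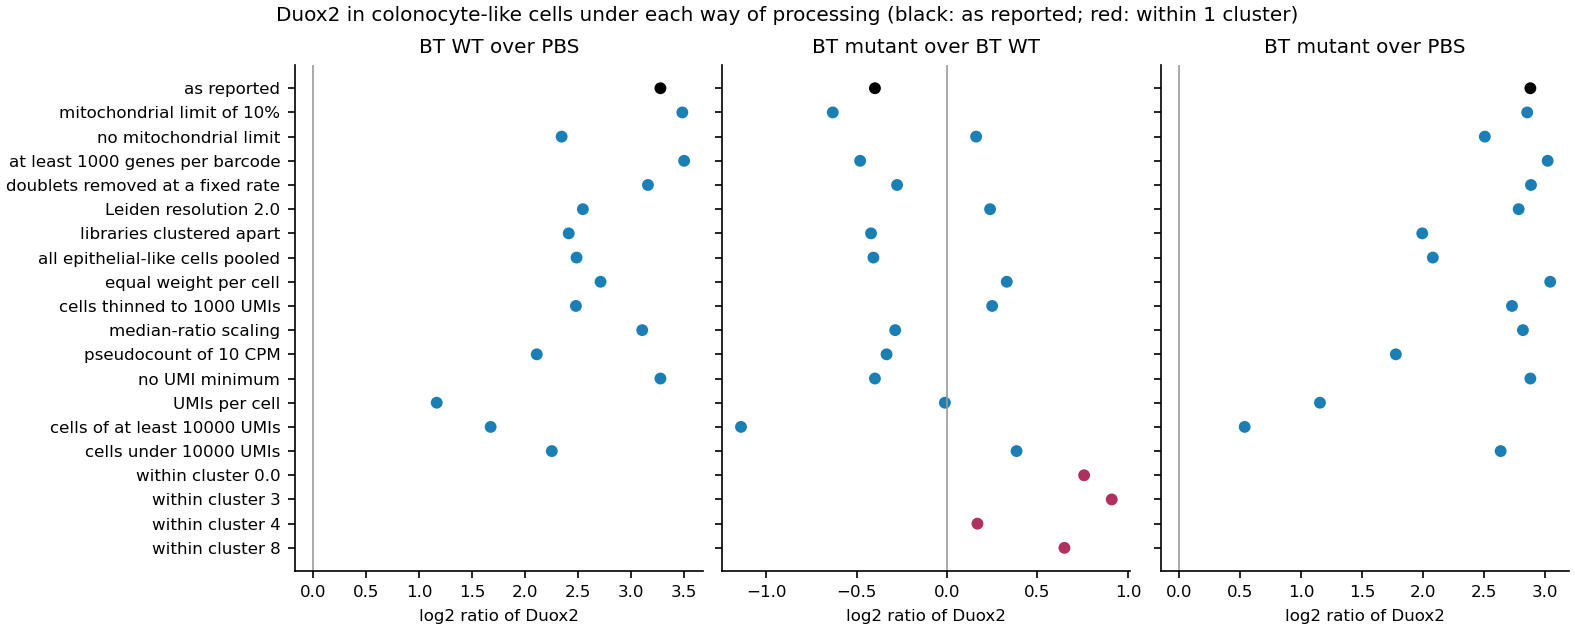
Log2 ratio of Duox2 in colonocyte-like cells (horizontal axis) for the 3 library pairs under each way of processing (vertical axis); black is the value as reported, red the values within 1 cluster, and blue all others. In the panels all values of BT WT over PBS and of BT mutant over PBS are above 0, but none of these is within 1 cluster. Those of BT mutant over BT WT, the only pair with red values, fall on both sides of 0, from -1.14 to 0.91.

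Goblet-like cells, the mucus makers, carried Duox2 in all 3 libraries. The level was 23.8 CPM (18.6 to 30.1) in PBS, 52.4 CPM (47.0 to 58.2) in BT WT and 36.8 CPM (28.1 to 47.4) in BT mutant. The ratio of BT WT to PBS was 2.20 (1.70 to 2.88), smaller than in colonocyte-like cells. Colonocyte markers moved in the same order within the goblet-like class, at 3800, 10105 and 4337 CPM. Goblet-like cluster 13, which scored 2.15 for colonocyte markers beside 4.52 for goblet markers, numbered 6, 266 and 18 cells and held Duox2 at 78.6 CPM in BT WT. The part of either in the ratio was not tested. Within cluster 5, the largest goblet-like cluster and the only one with at least 50 cells in each library, the levels were 43.7 CPM (31.6 to 58.8), 54.9 CPM (46.0 to 65.1) and 66.8 CPM (39.6 to 106), and these intervals overlap. Among goblet-like cells under 10000 UMIs the PBS level, 77.9 CPM (55.6 to 106), was not below the BT WT level of 62.0 CPM (54.1 to 70.7). A Duox2 level of this size in germ-free goblet-like cells rests on 70 UMIs, of which the most in any cell was 10. Duoxa2 in goblet-like cells was 9.19 CPM (6.06 to 13.4), 14.3 CPM (11.5 to 17.4) and 6.14 CPM (2.95 to 11.3). Little of either gene was seen in stem and transit-amplifying-like cells, with Duox2 at 4.01, 5.37 and 5.43 CPM. Tuft-like cells, the chemosensory cells of the epithelium, held 0, 4 and 5 Duox2 UMIs over 38, 76 and 113 cells, where 0 UMIs allow up to 11.6 CPM.

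Outside the epithelium, the compared classes held Duox2 at 1.55 to 18.1 CPM, and 1 small group of cells was higher. The level was 1.55, 3.33 and 6.14 CPM in B-like cells, 3.44, 7.72 and 18.1 CPM in T-like cells, 2.97, 1.90 and 11.4 CPM in macrophage and monocyte-like cells and 1.78, 3.77 and 5.99 CPM in fibroblast-like cells. Free RNA from lysed cells can give such UMIs too. Per 1000 UMIs of the 20 colonocyte markers, B-like cells held 0.632, 1.38 and 4.17 Duox2 UMIs, against 0.152, 2.0 and 1.31 in colonocyte-like and 6.27, 5.18 and 8.50 in goblet-like cells. The part of free RNA in the values outside the epithelium was not tested. Cluster 28, an endothelial-like cluster led by Ccl21a, Mmrn1 and Igfbp5, was the group with the higher level. It numbered 13, 15 and 31 cells and held 10, 9 and 15 Duox2 UMIs, or 86.0 CPM (41.2 to 158), 81.3 CPM (37.2 to 154) and 66.0 CPM (36.9 to 109). In the PBS library those UMIs were spread over 8 of 13 cells with no more than 2 in a cell. In BT WT 6 of the 9 UMIs, and in BT mutant 10 of the 15, came from 1 cell. Per 1000 colonocyte marker UMIs this cluster held 30.5, 26.2 and 51.7 Duox2 UMIs. The other endothelial-like cluster, number 23, held 0, 2 and 1 Duox2 UMIs over 35, 64 and 63 cells. Duoxa2 was at 0, 3 and 2 UMIs over all endothelial-like cells.

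**Figure D4:**
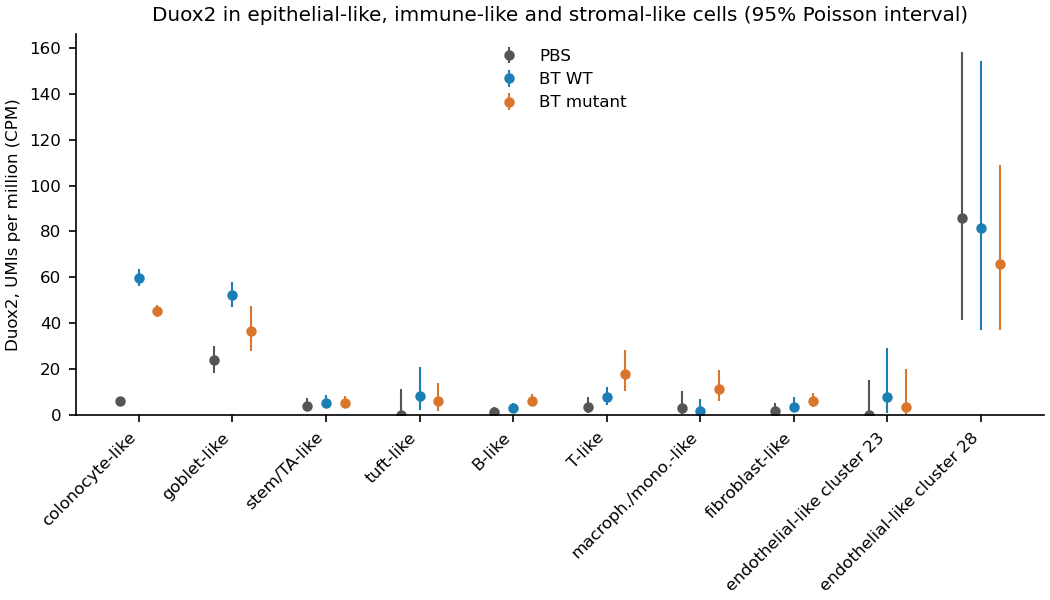
Duox2 level (CPM, vertical axis) in epithelial-like, immune-like, fibroblast-like and endothelial-like groups (horizontal axis) of each library, with 95% Poisson intervals. Endothelial-like cluster 28 is at 86.0, 81.3 and 66.0 CPM, while endothelial-like cluster 23 is at 0, 8.09 and 3.63 CPM.

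Nox1, the catalytic subunit of the colon oxidase, was found mainly in stem and transit-amplifying-like cells and in some goblet-like clusters. GENCODE places it on chromosome X at 134086421 to 134221956, a span that overlaps Xkrx on the same strand and Cstf2 and Arl13a on the other. In stem and transit-amplifying-like cells its level was 10.4 CPM (6.81 to 15.3) in PBS, 16.7 CPM (12.5 to 21.9) in BT WT and 14.8 CPM (11.3 to 19.1) in BT mutant, from 26, 53 and 60 UMIs. These intervals overlap, and the ratio of BT WT to PBS was 1.61 (0.986 to 2.67); with cells weighted equally its log2 value was -0.23. Enteroendocrine markers summed to 4682, 4.42 and 2.47 CPM in stem and transit-amplifying-like cells, and their part in the ratios to PBS was not tested. Within cluster 7.3, led by Clca3b and Gpx2, the Nox1 levels were 15.3, 22.2 and 25.6 CPM. Within cluster 22, which has Gcg and Pyy among its leading genes when the libraries are joined, they were 8.14, 16.4 and 16.2 CPM. By contrast colonocyte-like cells held 1, 1 and 2 Nox1 UMIs among 508, 3316 and 3200 cells. Those class sums were 12347548, 18605640 and 23476540 UMIs, so the upper limits were 0.451, 0.299 and 0.308 CPM. Goblet-like cluster 5 held 0 Nox1 UMIs in every library, and the goblet-like UMIs sat mainly in clusters 19.2 and 19.3, with 14 and 12 UMIs in BT WT at 16.5 and 21.0 CPM. Both clusters are led by Spink4, Agr2 and Pyy, genes of goblet and enteroendocrine cells. They scored 2.93 and 2.84 for goblet markers and 2.63 and 2.52 for enteroendocrine markers. Their cells were deep, at a median of 9.87 and 10.2 times the median UMIs of their library. Doublets were left in, and their part in these clusters was not tested.

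Noxa1, the activator of NOX1, had the same class order. On chromosome 2 (25085667 to 25095149, minus strand) it overlaps Entpd8 on the opposite strand. In stem and transit-amplifying-like cells it was at 31.3 CPM (24.7 to 39.1), 44.5 CPM (37.5 to 52.5) and 53.8 CPM (46.9 to 61.4). The BT mutant to PBS ratio was 1.72 (1.32 to 2.25), that of BT WT to PBS 1.42 (1.07 to 1.90) and that of BT mutant to BT WT 1.21 (0.972 to 1.503). The part of the enteroendocrine markers of this class, far higher in PBS, in the ratios to PBS was not tested. In colonocyte-like cells Noxa1 was low but different between libraries: 2.35 CPM (1.57 to 3.37), 3.82 CPM (2.98 to 4.81) and 7.24 CPM (6.19 to 8.42). For BT WT to PBS the log2 ratio turned to -0.79 with cells weighted equally and to -0.74 in cells under 10000 UMIs. The BT mutant to BT WT ratio was 1.90 (1.43 to 2.54). Within the shared cluster 4 it had a log2 value of -0.14, and within cluster 8 the levels were 5.19 CPM and 5.72 CPM, so the class ratio was not met inside these clusters. Elsewhere BT mutant was higher than BT WT. In cluster 3 the BT WT and BT mutant levels were 4.37 and 8.06 CPM, from 3 and 22 UMIs. Over clusters 0.0 to 0.6 they were 2.48 and 8.60 CPM, from 28 and 6 UMIs. In cells under 10000 UMIs they were 3.42 CPM (2.46 to 4.62) and 8.64 CPM (6.82 to 10.8). In goblet-like cells Noxa1 was at 23.8, 15.01 and 44.2 CPM. Most of the PBS value came from cluster 19.3, where 21 cells held 45 of the 70 UMIs, and most of the BT mutant value from cluster 19.2, where 22 cells held 47 of the 72 UMIs. Enteroendocrine markers moved with it, at 569, 194 and 4076 CPM in the goblet-like class, and within cluster 5 the Noxa1 levels were 6.09, 10.3 and 11.1 CPM with overlapping intervals. Their part in the difference was not tested.

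Noxo1, the organizer of NOX1, was present in colonocyte-like, goblet-like, stem and transit-amplifying-like and tuft-like cells, also where Nox1 was at 2 UMIs or fewer. It lies on chromosome 17 (24696234 to 24700529, plus strand) and overlaps Tbl3 on the opposite strand. In colonocyte-like cells its level was 50.8 CPM (46.9 to 54.9), 73.3 CPM (69.4 to 77.3) and 70.1 CPM (66.7 to 73.5). The ratio of BT WT to PBS, 1.44 (1.31 to 1.59), stayed under the 1.5-fold limit used here, and BT mutant to BT WT was 0.956 (0.890 to 1.03). Stem and transit-amplifying-like cells were at 75.8, 86.9 and 96.2 CPM, and tuft-like cells at 97.6 CPM (66.3 to 138), 130 CPM (100 to 166) and 108 CPM (87.0 to 133). Within BT WT the order was tuft-like, stem and transit-amplifying-like, colonocyte-like and goblet-like; tuft-like stood clear of stem and transit-amplifying-like cells, and the latter's interval of 76.9 to 97.8 CPM overlapped that of colonocyte-like cells. B-like cells were at 5.69, 8.21 and 4.97 CPM. Within stem and transit-amplifying-like cells of BT WT, 88.5% of the cells with a Nox1 UMI also held Noxo1, against 55.1% of those without, at median depths of 30638 and 21073 UMIs.

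Cyba, the shared membrane subunit, was present in every class and highest in immune-like cells. It lies on chromosome 8 at 122424776 to 122432930. Macrophage and monocyte-like cells held 633 CPM (574 to 696), 931 CPM (874 to 991) and 850 CPM (798 to 906), and B-like cells 413, 533 and 608 CPM. T-like cells were at 228 CPM (204 to 254), 303 CPM (281 to 327) and 393 CPM (355 to 434), with a BT mutant to PBS ratio of 1.73 (1.49 to 2.01). Among epithelial-like classes the stem and transit-amplifying-like level of 145, 191 and 198 CPM was the highest, goblet-like cells followed at 64.0, 63.8 and 119 CPM, and colonocyte-like cells were lowest at 33.2, 42.5 and 48.1 CPM. The goblet-like value of BT mutant again came mainly from cluster 19.2, with 126 of 194 UMIs, and within cluster 5 it was 7.42 CPM (0.899 to 26.8) against 28.5 CPM (22.2 to 36.0) in BT WT. Cyba, Noxa1 and Nox1 each had the order stem and transit-amplifying-like, goblet-like, colonocyte-like in every library when whole classes were compared. The first pair of intervals overlapped for Noxa1 in PBS and BT mutant and for Nox1 in BT mutant. In goblet-like cluster 5 alone, Cyba lay below the colonocyte-like level, at 28.5 against 42.5 CPM in BT WT and 7.42 against 48.1 CPM in BT mutant. No Nox1 UMI was seen in cluster 5, though Noxa1 there was above its colonocyte-like value in every library. Fibroblast-like cells held Cyba at 238, 194 and 241 CPM.

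Cybb, the phagocyte oxidase, marked macrophage and monocyte-like cells at 465 CPM (415 to 519), 451 CPM (412 to 494) and 341 CPM (308 to 376). It lies on chromosome X at 9435252 to 9487771 on the minus strand. The BT mutant to BT WT ratio was 0.755 (0.659 to 0.865). Mast cell markers summed to 2320 CPM in the PBS cells of this class, against 0.948 and 0.878 CPM, and their part in the ratios to PBS was not tested. Cluster 20, led by Lyz2 and Retnla, was at 535, 424 and 264 CPM. In cluster 18, led by C1qa, the levels were 401, 498 and 432 CPM, and the intervals of BT WT and BT mutant overlapped there. B-like cells, whose receptor signalling also uses this oxidase, held 253, 227 and 215 CPM. All other compared classes were at 12.5 CPM or lower. Ncf1, the organizer that works with CYBB, was at 218, 185 and 165 CPM in macrophage and monocyte-like cells and at 85.7, 101 and 89.8 CPM in B-like cells, but at 4.42 CPM or lower in the compared epithelial-like classes. Tuft-like cells held Rac2, the small GTPase of the phagocyte oxidase, at 353, 267 and 417 CPM. Ncf1 had 0, 0 and 3 UMIs there and Cybb 0, 2 and 1. Ncf4, a further cytosolic subunit, was at 68.1, 98.8 and 135 CPM in B-like and 66.8, 91.0 and 51.8 CPM in macrophage and monocyte-like cells. Duox1, the other dual oxidase, had 4, 4 and 7 UMIs in fibroblast-like cells and at most 2 UMIs in any other class and library.

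Nos2 was rare in every class. Colonocyte-like cells held 6, 25 and 9 UMIs, or 0.486 CPM (0.178 to 1.06), 1.34 CPM (0.870 to 1.98) and 0.383 CPM (0.175 to 0.728). The 6 PBS UMIs came from 2 cells, so the ratio of 2.77 (1.11 to 8.24) for BT WT to PBS is fragile, and with no mitochondrial limit its log2 value was -0.46. Among cells under 10000 UMIs the PBS library held 0 Nos2 UMIs over 191 cells and BT WT 23 over 3068 cells, which gives no direction at this depth. The BT mutant to BT WT ratio was 0.285 (0.117 to 0.632). All 25 BT WT UMIs lay in clusters 0.0 to 0.6, of which BT mutant has only 199 cells, and clusters 3 and 4 held 0 Nos2 UMIs in BT WT and 3 and 6 in BT mutant. Goblet-like cells held 9 UMIs in BT WT, from 4 cells, and 0 elsewhere, where 0 UMIs allow up to 1.26 CPM in PBS and 2.27 CPM in BT mutant. Macrophage and monocyte-like, stem and transit-amplifying-like and fibroblast-like cells held 0 in every library. Endothelial-like cells held 4 UMIs in each library over 48, 79 and 94 cells, at 11.3, 11.2 and 7.96 CPM, and 3, 4 and 3 of them lay in cluster 23. Nos2 (chromosome 11, 78920787 to 78960254, plus strand) overlaps no other annotated gene.

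Read as a set, the 8 genes did not move as a unit. With a limit of 1.5-fold and at least 20 UMIs over both libraries, 4 of 7 members were higher and 1 was lower in colonocyte-like cells of BT WT than of PBS, where 32.3% and 19.3% of all genes counted were higher and lower. Those higher were Duox2, Duoxa2, Noxa1 and Nos2, and Cybb was lower, from 12 against 17 UMIs with an interval that includes 1. For BT mutant to BT WT, Noxa1 was higher and Nos2 lower, 1 and 1 of 7 members, against 14.4% and 21% of all genes. For BT mutant to PBS, Duox2, Duoxa2 and Noxa1 were higher and Cybb lower, 3 and 1 of 6 members, against 17.7% and 12.5%. The comparisons share libraries, and the counts were not tested against the shares of all genes. In goblet-like cells 3 members were higher and 1 lower in BT WT than in PBS (background 16.3% and 23%), 4 higher and 2 lower in BT mutant than in BT WT (27% and 21.5%), and 5 higher and 0 lower in BT mutant than in PBS (11.6% and 11.7%). In these 3 comparisons 3, 1 and 1 further members passed neither limit, and 1, 1 and 2 were not counted. Within cluster 5 the BT mutant to BT WT log2 ratios of Noxo1 and Cyba were -0.24 and -1.94, so these 2 were not higher there. For BT mutant to PBS the log2 ratio of Cyba within cluster 5 was -1.89. With libraries clustered apart it was -2.52 for Cyba and -0.48 for Noxa1, and with equal weight per cell -0.03 for Duox2. In stem and transit-amplifying-like cells 2 members, Nox1 and Cybb, were higher in BT WT than in PBS (background 8.34%) and 0 were lower (8%). The Nox1 interval includes 1, and Cybb rests on 20 against 5 UMIs. In BT mutant 0 were higher (5.96%) and 1, Cybb, lower (11.6%) than in BT WT. For BT mutant to PBS 1, Noxa1, was higher (7.23%) and 0 lower (13.1%). In these 3 comparisons 4, 5 and 4 further members passed neither limit, and 2, 2 and 3 were not counted. Enteroendocrine markers summed to 4682, 4.42 and 2.47 CPM and B cell markers to 27.3, 140 and 109 CPM in this class. The part of either in these counts was not tested. Another scaling, by median ratios, shifted all colonocyte-like log2 ratios by -0.17 for BT WT to PBS and 0.11 for BT mutant to BT WT.

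**Figure D5:**
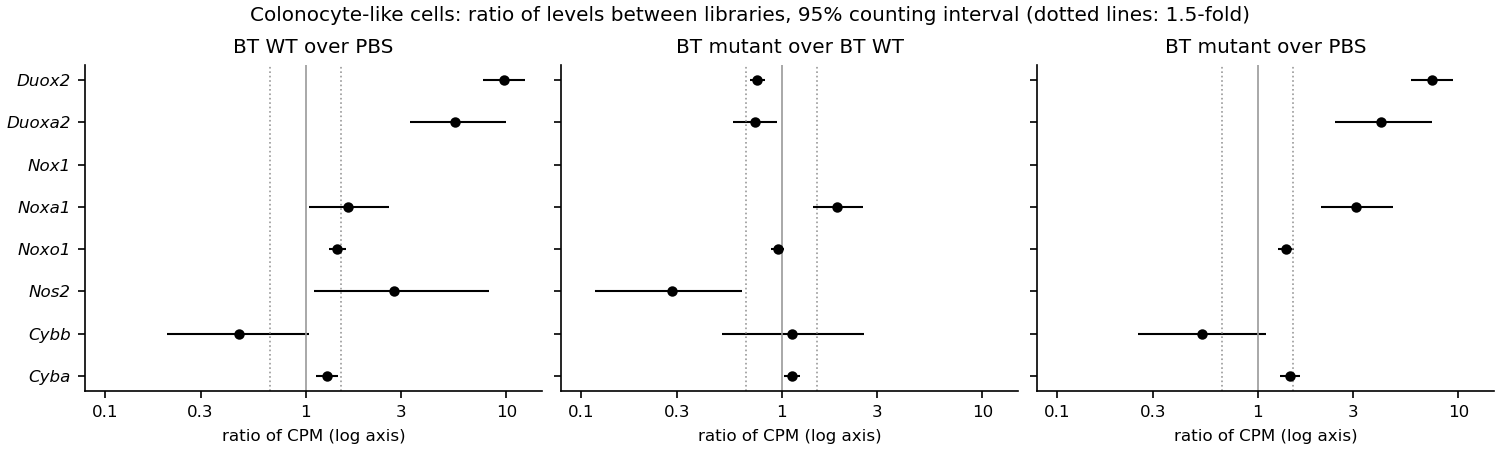
Ratio of CPM between libraries (horizontal log axis) for each member with at least 20 UMIs (vertical axis) in colonocyte-like cells, with 95% counting intervals; dotted lines mark 1.5-fold in each direction. Duox2 and Duoxa2 lie at 9.72 and 5.56 for BT WT over PBS and at 0.758 and 0.739 for BT mutant over BT WT.

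The receptors and adaptors known to act upstream of Duox2 and Nos2 were often higher in colonocyte-like cells of the colonized libraries. Of 23 counted genes, 11 were higher and 1 was lower in BT WT than in PBS (background 32.3% and 19.3%), with a median log2 ratio of 0.57 against 0.20 over all genes. Il22ra1, the epithelial subunit of the IL-22 receptor, had the largest ratio at 6.31 (4.75 to 8.54), from 4.29 to 27.1 CPM. Ifngr1, an interferon gamma receptor chain and the most abundant of the list, went from 263 to 400 CPM, a ratio of 1.52 (1.46 to 1.58). Others higher by 1.5-fold included Irf1 (3.93), Il17rc (3.16), Ifnlr1 (2.68), Tlr4 (2.61), Ripk2 (2.43), Nfkb1 (1.93), Il17ra (1.61) and Rela (1.52). In BT mutant against PBS 8 were higher and 2 lower (background 17.7% and 12.5%), with Il22ra1 at 3.73 (2.79 to 5.07). Against BT WT 1 was higher and 7 were lower (background 14.4% and 21%), Tlr5 by the largest ratio at 0.449 (0.232 to 0.841). The part of depth and of the make-up of the class in these ratios was not tested. Whether these genes bear on the levels of Duox2 or Nos2 was not tested either.

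Genes that remove superoxide and hydrogen peroxide lay the other way. Of 19 counted genes, 0 were higher and 16 lower in BT WT than in PBS colonocyte-like cells, against 32.3% and 19.3% of all genes, and the median log2 ratio was -1.13 against 0.20. Cat, the catalase, went from 197 to 21.0 CPM, a ratio of 0.107 (0.0955 to 0.119), and Txn1, the thioredoxin and most abundant of the list, from 3592 to 1655 CPM, a ratio of 0.461 (0.454 to 0.467). In BT mutant against BT WT 10 were higher and 0 lower (background 14.4% and 21%), with Txn1 at 2.35 (2.32 to 2.38) and Gpx3 at 3.46 (1.77 to 7.38). Against PBS 0 were higher and 8 lower (background 17.7% and 12.5%), with Cat at 0.158 (0.145 to 0.172). Depth moved with this list as well, since the PBS cells were the deepest, and its part was not tested. Of the other oxidase subunits and regulators, 3 of 10 were higher and 4 lower in BT WT than in PBS, the former share being near the 32.3% of all genes and the background of lower genes 19.3%. Cybc1, which CYBB needs to form its complex, was at 2.17 (1.72 to 2.77) and Rac1, the most abundant, at 0.747 (0.716 to 0.780). In BT mutant against BT WT 1 was higher and 0 lower (background 14.4% and 21%), Tesc at 5.35 (1.86 to 21.0) from 27 against 4 UMIs. Against PBS 1 was higher and 2 lower (background 17.7% and 12.5%), Rac2 at 0.376 (0.236 to 0.592). Among genes that supply arginine and the cofactor of the nitric oxide synthases, 0 of 12 were higher and 4 lower in BT WT than in PBS (background 32.3% and 19.3%), Qdpr at 0.329 (0.291 to 0.371). In BT mutant against BT WT 5 of 13 were higher and 3 lower (background 14.4% and 21%), and Arg2, an arginase that competes for arginine, was at 0.352 (0.231 to 0.528). The 5 peroxidases of the list had too few UMIs to count, Lpo having 2, 0 and 9.

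The markers of other cell types and of position beside these values were as follows. Fat-cell markers summed to 104, 10.7 and 20.4 CPM in colonocyte-like cells, macrophage and monocyte markers to 272, 247 and 180 CPM, and neutrophil markers, 3 of 10 of them at 0, to 37.3, 192 and 66.6 CPM. The neutrophil marker Ly6g was among the leading genes of colonocyte-like clusters 0.1, 0.2, 0.4 and 0.5, so this sum is not one of neutrophil RNA alone. Goblet markers summed to 1866, 2424 and 335 CPM and red blood cell markers to 1.46, 139 and 33.9 CPM in colonocyte-like cells. Posterior Hox genes summed to 185, 305 and 167 CPM, led by Hoxb13 at 130, 223 and 107 CPM. Dissociation stress genes summed to 8216, 6138 and 7943 CPM. The part of these in the values above was not tested.

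Genes whose level across the 7 classes and 3 libraries was most like that of a member are given as a description over 21 points that share libraries and depth. For Duox2 they were 2210407C18Rik (Pearson r = 0.947 of log2 of CPM + 10), Ppm1j (0.929) and Dio1 (0.925). For Noxa1 they were Pcbd1 (0.978), Clca3b (0.977) and Cbs (0.974), and for Noxo1 Cdx2 (0.972), Rab25 (0.969) and Esrp1 (0.969). For Cybb they were Themis2 (0.992), Cd86 (0.992) and Gm6377 (0.991), and for Cyba Gng10 (0.944), Cmtm7 (0.944) and Cotl1 (0.941). Duoxa2, Nox1 and Nos2 did not reach 50 CPM in any class and were not compared.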

How the data were processed

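Each deposited matrix gives raw UMI counts by gene and barcode, which the authors made with Cell Ranger 5.0.0, per the file headers. Cell Ranger, STAR and the build mm10 are named in the submitters' processing notes. Annotation release, strand setting and cell calling: not given in the sources used here. Chromium 3′ v3 reagents were used, per the labels' protocols.

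Barcodes with at least 300 genes and at most 25% mitochondrial UMIs were kept. Counts were scaled to 10000 per cell and log-transformed; 2000 variable genes gave 30 principal components (numpy 2.4.6, scipy 1.17.1), leaving out the 8 genes and mitochondrial, ribosomal, immunoglobulin, T cell receptor, haemoglobin and sex-linked genes. Leiden clustering (leidenalg 0.10.2) joined the libraries, with 15 neighbours and resolution 1.0, and ambiguous clusters of 60 or more cells were divided once more (0.0, 0.1 and so on). Clusters were named from 20 marker sets by their score, with at least 3 detected markers, and unnamed where markers of other compartments scored 2.0 or more. The naming rule was set after clusters were seen. Scrublet (scanpy 1.11.5) called 5, 139 and 116 doublets in PBS, BT WT and BT mutant, which is too few in PBS to have worked, so doublets were left in.

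UMIs were summed by class and library. Levels have exact Poisson intervals, shares Clopper-Pearson intervals and ratios exact conditional binomial intervals, all at 95% and for counting error only. For a ratio, a class sum of 0 took a floor of 3 UMIs, and was not used where the floor turned its direction. Members counted as higher or lower lay past 1.5-fold with at least 20 UMIs over both sums. On simulated counts with 200 altered genes, between 95.8% and 95.9% of ratio intervals covered the true ratio. Named genes were the 8 members, the most abundant gene of each list and the one with the largest ratio (at least 30 UMIs), and the 3 genes most like each member that reached 50 CPM. Further list genes past 1.5-fold, and clusters 23 and 28, were named after their values were seen. The members and lists were chosen with earlier results of these data known. Gene positions are from GENCODE vM21 and promoter windows from RefSeq.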

Additional observations from a re-analysis of the deposited data

Results flagged for a closer look

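Noxa1, the NOX1 activator, had ratios of opposite direction in BT WT over PBS, at 1.62 in colonocyte-like and 0.63 in goblet-like cells. The colonocyte-like value rests on 71 and 29 UMIs and the goblet-like one on 100 and 70. Within goblet-like cluster 5 the log2 ratio was 0.76, so the opposite direction was not met there. Cybb, the phagocyte oxidase, had ratios of 3.15 in stem and transit-amplifying-like and 0.346 in fibroblast-like cells for BT WT over PBS, from 20 against 5 and 8 against 21 UMIs. Neither class is known for this gene, and its level was at most 12.5 CPM in both. With 1 library per group the difference between these pairs of ratios was not tested.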

How the results depend on the processing

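No paired analysis was possible because each group is 1 library. Of 1076 values of 96 results under alternatives, 809 moved by less than their counting interval, 236 moved by more and 31 reversed. The 31 do not hold every change of sign. Those of Duox2 for BT mutant over BT WT in colonocyte-like cells, a ratio under 1.5-fold, were counted as moved. The cause was not tested. UMIs per cell, values within 1 cluster and cells split at 10000 UMIs were chosen after seeing the data. Values below are log2 ratios unless called counts.

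In colonocyte-like cells, BT WT over PBS, Noxa1 was -0.79 with equal weight per cell, -1.42 as UMIs per cell and -0.74 in cells under 10000 UMIs. Nos2 was -0.46 with no mitochondrial limit and -0.65 as UMIs per cell, and Cybb was 0.16 with all epithelial-like cells pooled. BT mutant over BT WT, Noxa1 was -0.14 within cluster 4. BT mutant over PBS, Duoxa2 was -0.12 in cells of at least 10000 UMIs and Noxa1 -0.10 as UMIs per cell. In goblet-like cells, BT WT over PBS, Duox2 was -0.33 in cells under 10000 UMIs, and Duoxa2 was -0.50 as UMIs per cell, -0.30 within cluster 5 and -1.16 in cells under 10000 UMIs. Nox1 was -0.45 as UMIs per cell, and Noxa1 was 1.04 with doublets removed, 0.76 within cluster 5 and 0.052 in cells under 10000 UMIs. BT mutant over BT WT with libraries clustered apart, Duoxa2 was 0.13, Noxa1 -0.25, Noxo1 -0.026 and Cyba -2.28. Duoxa2 was 0.13 in cells under 10000 UMIs, and within cluster 5 Noxo1 was -0.24 and Cyba -1.94. BT mutant over PBS, Duox2 was -0.03 with equal weight, Noxa1 -0.48 and Cyba -2.52 with libraries clustered apart, and Cyba -1.89 within cluster 5. With equal weight Nox1 was -0.23 in stem and transit-amplifying-like cells (BT WT over PBS), and Noxo1 was 0.23 (BT WT over PBS) and 0.24 (BT mutant over PBS) in macrophage and monocyte-like cells.

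The count of members higher in colonocyte-like cells of BT WT than PBS, 4, became 2 with a mitochondrial limit of 10%, a pseudocount of 10 CPM or cells under 10000 UMIs, 1 with thinned cells or UMIs per cell, and 0 within cluster 10. The count lower, 1, became 5 as UMIs per cell, 2 with equal weight or in cells under 10000 UMIs, and 0 with the 10% limit, pooled epithelial-like cells, thinned cells, the pseudocount, cluster 10 or cells of at least 10000 UMIs. As UMIs per cell 92.7% of all genes were lower. For BT mutant over BT WT the count higher, 1, became 3 within cluster 3, and 0 with the 10% limit, no mitochondrial limit, at least 1000 genes, resolution 2.0, pooled epithelial-like cells, the pseudocount, clusters 4 or 10, or cells of at least 10000 UMIs. The count lower, 1, became 3 with pooled epithelial-like cells, 2 within cluster 0.0 or in cells of at least 10000 UMIs, and 0 at resolution 2.0, with thinned cells, the pseudocount, or within clusters 8 or 10. For BT mutant over PBS the count higher, 3, became 5 with no mitochondrial limit or libraries clustered apart, 1 with thinned cells, the pseudocount or UMIs per cell, and 0 within cluster 10. The count lower, 1, became 3 as UMIs per cell, and 0 with the 10% limit, pooled epithelial-like cells, thinned cells, the pseudocount, cluster 10 or cells of at least 10000 UMIs. Scaling by median ratios also shifted goblet-like log2 ratios by 0.11 (BT WT over PBS) and -0.14 (BT mutant over BT WT). Few UMIs limit Nos2, ratios of Nox1 outside stem and transit-amplifying-like cells, and every other value under 20 UMIs. The level of Nox1 in colonocyte-like cells is bounded by the upper limits given above.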

Other observations

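PBS cells of macrophage and monocyte-like cluster 18 were shallow, with a median of 1440.5 UMIs against 6864 in BT WT and 4903 in BT mutant. Cyba was at 447, 581 and 676 CPM there and at 839, 1132 and 996 CPM in cluster 20. Unnamed clusters 21.1 and 21.2, which are led by B cell genes and also carried markers of another compartment, held Duox2 at 90.2 CPM (59.4 to 131) in BT mutant cluster 21.1 and at 59.1 CPM (32.3 to 99.2) in BT WT cluster 21.2. They belong to no class and entered no comparison.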
